A study of Homo sapiens with 6 samples.

Results

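This section describes 10 genes that encode inhibitors of the ERK pathway, in MDA-MB-231 cells grown in collagen gels with and without targeting of ETV1, ETV4 and ETV5. The genes are 4 ERK phosphatases (DUSP4, DUSP5, DUSP6 and DUSP7), 3 Sprouty genes (SPRY1, SPRY2 and SPRY4) and 3 Spred genes (SPRED1, SPRED2 and SPRED3). They were taken by name from the 61228 gene rows of the count table, all 10 were found, and all 10 were among the 14704 genes with enough counts to be tested. MDA-MB-231 is a human triple-negative breast cancer line. Cells of both groups received the Cas9 nuclease by nucleofection and were embedded in gels of collagen I, from which RNA was prepared for poly(A) sequencing. The control group (n = 3 libraries) received control guide RNAs. The KO group (n = 3) received guides against ETV1, ETV4 and ETV5 according to the treatment label, although its sample titles name ETV4 alone. More than 1 collagen density is listed for the study, without saying which library had which. The tag c39 in the KO library names is not explained, so it is not known whether these libraries are 1 clone, and clone and knockout cannot be told apart. Nothing states that replicates were separate cultures, and p-values therefore measure only the spread between these libraries.

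The ERK pathway carries signals from growth factor receptors through RAS and the RAF, MEK and ERK kinases, and active ERK switches on genes whose products shut the pathway down. The dual-specificity phosphatases remove the activating phosphates from ERK itself, Sprouty proteins interfere with signalling between the receptor and RAF, and Spred proteins bring the RAS inhibitor neurofibromin to the membrane. In several developing tissues DUSP6, Sprouty genes and the ETV1, ETV4 and ETV5 genes are transcribed together where FGF and ERK signalling is active.

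The proximal promoters of 8 of the 10 genes, all but DUSP4 and DUSP5, were given as 13 windows in RefSeq (GRCh38.p14). A window runs from 250 bases before to 50 bases after a start, and several genes have more than 1 start. The windows are described here for the sequence that ETS factors recognise. The ETS core GGAA was found on either strand in 12 of the 13 windows, against 95.5% of all 35116 windows, and the longer word CGGAAG, which contains this core, in 3 of 13 (23.1%) against 19.5%. The full word CCGGAAGT, which contains both, was in 0 of the 13 windows and in 4.14% of all windows. The shares of the members were thus close to those of all promoters. Below are 30 bases around each CGGAAG match and, for SPRY4, around the GGAA match that lies nearest before its start. Each is written 5′ to 3′ on the strand of its gene, with the match in capitals and the distance of its first base from the start (negative before it; CTTCCG and TTCC are the same words read on the other strand). All 4 stretches overlap an exon of some transcript of their gene in GENCODE release 29. A match is a description of the letters and no evidence of binding.
DUSP6 (chr12:89352546-89352575, minus strand, match at -62): cggcaacagcccCTTCCGcagcacgctcat
SPRY1 (chr4:123398308-123398337, plus strand, match at -66): gccctccgcagcCGGAAGggggccgcgggg
SPRED2 (chr2:65432550-65432579, minus strand, match at 39): gctgggaagacgtcatcgCTTCCGccctac
SPRY4 (chr5:142324287-142324316, minus strand, match at -56): gtgacggactgaaTTCCctccccttctgcc
As described below, transcripts of DUSP6, SPRY1 and SPRY4 fell in KO and those of SPRED2 did not pass the test. A CGGAAG match was thus present in a window of DUSP6 and of SPRY1, which fell, and of SPRED2, which did not pass. It was absent from the windows of SPRY4, which fell, and of DUSP7, SPRY2, SPRED1 and SPRED3, which did not pass. For DUSP4, which fell, there was no window. A link between matches and changes was not tested.

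Library totals ran from 18042601 to 23232770 counts, of which the 10 genes took 0.243% to 0.251% in control and 0.196% to 0.201% in KO libraries. Values are given as CPM (counts per 1000000 counts of a library, scaled with TMM factors), where 3 counts are worth 0.128 to 0.165 CPM. Of the targeted genes, ETV1 measured 218, 213 and 238 CPM in control and 135, 137 and 155 CPM in KO and fell (adjusted p = 0.00125 by edgeR). ETV4 measured 95.3, 94.9 and 91.4 CPM in control and 65.5, 61.5 and 64.0 CPM in KO and fell too (adjusted p = 6.12e-04 by edgeR). ETV5 measured 117, 108 and 112 CPM in control and 114, 113 and 112 CPM in KO and did not pass (adjusted p = 0.932 by edgeR). Gene counts do not show how far a gene was disrupted by small insertions or deletions. The labels could thus not be checked in this way for ETV1, ETV4 or ETV5. Replicate 3 of both groups stood apart from replicates 1 and 2 on the second principal component, which held 39.4% of the variance. Markers of mesenchymal-like breast cancer lines (VIM, CD44, AXL, MSN, CAV1 and SPARC) summed to between 8830 and 11000 CPM in control and 7680 to 9240 CPM in KO, with SPARC below 1 CPM and none of the 5 tested past the test in either direction. A list of 8 luminal or epithelial markers summed to 729 to 818 CPM in control and 842 to 947 CPM in KO, again with none past the test. The estrogen and progesterone receptor genes ESR1 and PGR and the epithelial cadherin CDH1 were below 1 CPM in every library. Of 6 fibroblast markers 4 were below 1 CPM throughout, with sums of 13.2 to 13.6 CPM in control and 11.8 to 14.0 CPM in KO. Among 5 leukocyte markers, CD3E was at 0 in all libraries and PTPRC below 1 CPM. The leukocyte sum was 6.66 to 7.97 CPM in control and 2.68 to 3.03 CPM in KO, carried by the lysozyme gene LYZ, which fell from 6.03 ± 0.246 to 1.55 ± 0.266 CPM (adjusted p = 3.41e-04 by edgeR). The part of these markers in the results below was not tested.

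Transcripts of 4 of the 10 feedback genes were lower in KO cells, namely the phosphatases DUSP6 and DUSP4 and the Sprouty genes SPRY1 and SPRY4. None was higher, and SPRY2, DUSP5, DUSP7, SPRED1, SPRED2 and SPRED3 did not pass the test. The decreases were moderate, between 20.6% and 32.2%. As log2 fold changes of KO over control (log2 change from here on), the 10 genes had a median of -0.27, against 0.00 over all tested genes. In edgeR's quasi-likelihood test with adjustment over all genes, 6.42% of the 14704 genes were lower and 3.28% higher in KO. DESeq2 likewise called 4 members lower and 0 higher, where it called 6.57% of all genes lower and 4.03% higher. At an unadjusted edgeR p under 0.05 there were 5 members lower and 0 higher, beside 14.2% and 11.2% of all genes. The CPM values of the groups did not overlap for 5 members, all lower in KO, where 16.8% of all genes were lower and 14.9% were higher without overlap. In bulk RNA, fewer cells of a kind and less of a transcript per cell cannot be told apart.

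**Figure D1:**
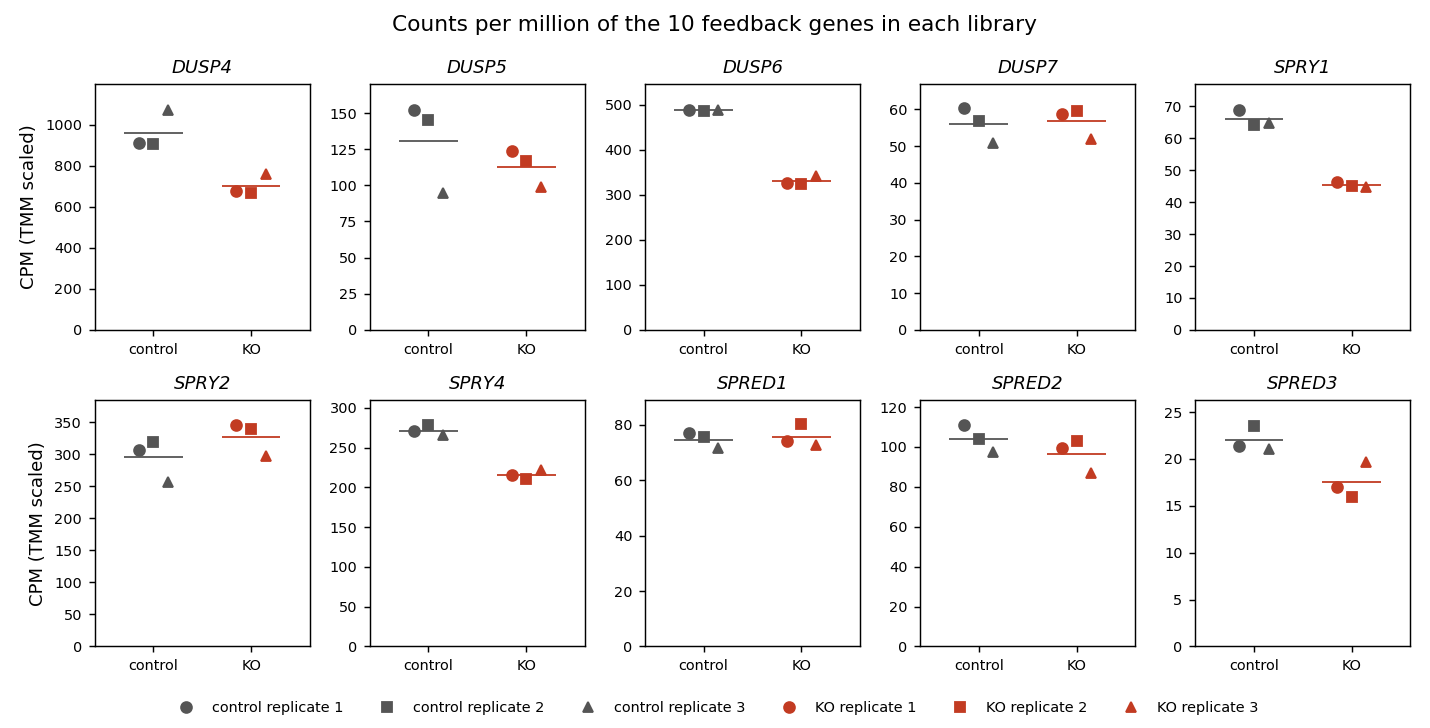
Level in CPM (vertical axes, TMM scaled, starting at 0) of each of the 10 feedback genes in the 3 control (grey) and 3 KO (red) libraries; symbols give the replicate number and horizontal lines the group mean. DUSP4, DUSP6, SPRY1, SPRY4 and SPRED3 have every KO library below every control library, and in DUSP5 and SPRY2 replicate 3 lies lowest in both groups.

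DUSP6, the cytoplasmic phosphatase that is highly selective for ERK, had the largest fall of the 10 genes. The gene lies on chromosome 12 (ENSG00000139318, GRCh38, 89347232 to 89353271, minus strand). Its level was 488, 487 and 489 CPM in control replicates 1, 2 and 3 and 327, 325 and 341 CPM in the KO replicates. The control libraries were nearly equal, and the groups were far apart compared with the spread within either. DUSP6 fell by 32.2%, a log2 change of -0.56 (SE 0.06, 95% interval -0.69 to -0.43, adjusted p = 5.77e-04 by edgeR). For scale, 6.94% of tested genes had a lower fold change, and ETV4 itself had a log2 change of -0.56 as well.

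DUSP4, a nuclear phosphatase of ERK and of the stress-activated JNK kinases, was the phosphatase with the most counts. It is located on chromosome 8 (ENSG00000120875, 29333064 to 29350668, minus strand). It measured 912, 903 and 1070 CPM in control and 674, 667 and 757 CPM in KO. Replicate 3 was the highest in both groups, yet the groups did not overlap. DUSP4 fell by 27.1%, with a log2 change of -0.46 (SE 0.09, 95% interval -0.65 to -0.26, adjusted p = 0.0128 by edgeR). The call was lost without KO replicate 1 (adjusted p = 0.0716) or KO replicate 2 (adjusted p = 0.0739), with a log2 change of -0.42 in both cases.

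DUSP5, a nuclear phosphatase specific for ERK, did not pass the test. It lies on chromosome 10 (ENSG00000138166, 110497838 to 110511544, plus strand). Its values were 152, 145 and 95 CPM in control and 124, 117 and 98.5 CPM in KO. Control replicate 3 was the lowest of the 6 libraries, below every KO library. The log2 change was -0.21 (SE 0.18, 95% interval -0.63 to 0.22, adjusted p = 0.539 by edgeR), an interval that runs from -35.4% to 16.3%. Single libraries decided its size. Without control replicate 3, DUSP5 was called lower (log2 change -0.39, adjusted p = 0.0394). It was not called at -0.08 without control replicate 1 (adjusted p = 0.855), at -0.12 without control replicate 2 (0.802) or at -0.09 without KO replicate 3 (0.815). Its pseudogene DUSP5P1 had 11 to 29 counts per library, against 1790 to 3212 for DUSP5, and how reads shared by the copies were assigned is not given in the sources used here.

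DUSP7, the close relative of DUSP6 that also acts on ERK in the cytoplasm, showed no difference beyond the spread of its replicates. It lies on chromosome 3 (ENSG00000164086, 52048919 to 52056550, minus strand). It measured 60.4, 56.9 and 50.9 CPM in control and 58.7, 59.5 and 51.9 CPM in KO, with wide overlap. The log2 change of 0.02 (SE 0.09, adjusted p = 0.931 by edgeR) has a 95% interval of -0.18 to 0.21, which does not reach the fall seen for DUSP6.

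Of the Sprouty genes, SPRY1 had the largest relative decrease. It is on chromosome 4 (ENSG00000164056, 123396795 to 123403760, plus strand). Its values were 68.9, 64.3 and 64.8 CPM in control and 46.2, 45.1 and 44.9 CPM in KO. The lowest control library exceeded the highest KO library by far more than the range of either group. SPRY1 fell by 31.2% (log2 change -0.54, SE 0.06, 95% interval -0.68 to -0.40, adjusted p = 0.00105 by edgeR).

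SPRY4, which also restrains signalling upstream of RAF, fell less. It lies on chromosome 5 (ENSG00000187678, 142310427 to 142326455, minus strand) and overlaps the antisense gene SPRY4-AS1, which had 51 to 77 counts per library. SPRY4 measured 271, 278 and 266 CPM in control and 215, 210 and 222 CPM in KO, again without overlap. It fell by 20.6% (log2 change -0.33, SE 0.06, 95% interval -0.46 to -0.20, adjusted p = 0.00861 by edgeR). The call was lost without control replicate 2 (adjusted p = 0.0608), at a log2 change of -0.32.

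SPRY2, the Sprouty gene with the highest level per exon length, had a higher mean CPM in KO but did not pass. It is on chromosome 13 (ENSG00000136158, 80335976 to 80340951, minus strand). Its values were 307, 319 and 257 CPM in control and 345, 339 and 298 CPM in KO. Replicate 3 was the lowest of each group, and KO replicate 3 lay below control replicates 1 and 2. Its log2 change was 0.15 (SE 0.09, 95% interval -0.06 to 0.37, adjusted p = 0.365 by edgeR), and the interval lies wholly above those of SPRY1 and SPRY4. With the replicate number as a block, which compares same-numbered libraries, SPRY2 was called higher at the same log2 change (adjusted p = 2.41e-04). Without the block, its log2 change was 0.06 when control replicate 3 was dropped (adjusted p = 0.683) and 0.24 when KO replicate 3 was dropped (0.111), uncalled in both.

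The 3 Spred genes did not pass. SPRED1 (ENSG00000166068, chromosome 15, 38252326 to 38357249, plus strand) measured 76.8, 75.5 and 71.5 CPM in control and 74.0, 80.3 and 72.5 CPM in KO. SPRED2 (ENSG00000198369, chromosome 2, 65310851 to 65432637, minus strand) measured 111, 104 and 97.6 CPM in control and 99.7, 103 and 87.0 CPM in KO. Both overlapped between groups, with log2 changes of 0.02 (SE 0.06, 95% interval -0.13 to 0.17, adjusted p = 0.893 by edgeR) and -0.11 (SE 0.08, 95% interval -0.29 to 0.07, adjusted p = 0.446 by edgeR). In percent the intervals run from -8.44 to 12.2 for SPRED1 and from -18.4 to 5.17 for SPRED2. SPRED3 (ENSG00000188766, chromosome 19, 38388421 to 38399587, plus strand) was the least abundant, with 21.4, 23.5 and 21.1 CPM in control and 17.0, 15.9 and 19.7 CPM in KO. Its groups did not overlap, and its log2 change of -0.33 equalled that of SPRY4. Its error, however, was larger (SE 0.10, 95% interval -0.56 to -0.10, adjusted p = 0.0813 by edgeR). SPRED3 was called lower without KO replicate 3 (log2 change -0.40, adjusted p = 0.0274 by edgeR) and without the filter on low counts (-0.33, adjusted p = 0.0349). The other fits with 1 library dropped did not call it, with -0.26 without KO replicate 2 (adjusted p = 0.225).

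**Figure D2:**
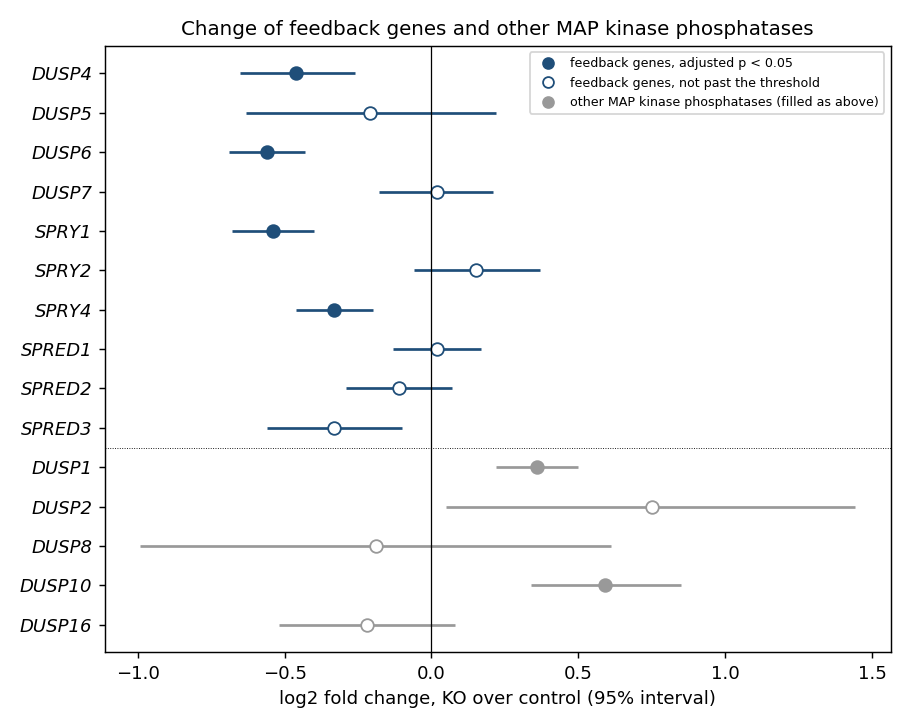
Log2 fold change of KO over control (horizontal axis) with its 95% interval for the 10 feedback genes (blue) and the 5 tested members of the other MAP kinase phosphatases (grey); filled points have an edgeR adjusted p below 0.05. DUSP4, DUSP6, SPRY1 and SPRY4 lie between -0.56 and -0.33 with intervals below 0, while DUSP1 and DUSP10 lie above 0.

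Replicate number moved with the level of several members. The difference of replicate 3 from the mean of replicates 1 and 2, on the log2(CPM + 0.5) scale, was -0.64 in control and -0.29 in KO for DUSP5, and -0.28 and -0.20 for SPRY2. It was -0.20 and -0.19 for DUSP7, -0.14 and -0.22 for SPRED2, and -0.09 in both groups for SPRED1. For DUSP4 the sign was opposite, with 0.23 and 0.17, and for SPRED3 it differed between groups (-0.09 and 0.26). DUSP6, SPRY1 and SPRY4 varied little with the replicate, between -0.04 and 0.06 in either group. What replicate 3 shares across the groups is not stated in the labels. Correlations between libraries did not show which of replicates 1 and 2 belong together across the groups. Taken within same-numbered pairs on that scale, DUSP6 changed by -0.58, -0.58 and -0.52, SPRY1 by -0.57, -0.51 and -0.53, DUSP4 by -0.44, -0.44 and -0.49 and SPRY4 by -0.33, -0.41 and -0.26. All 3 pairs thus gave the same sign for these 4 genes. SPRY2 was higher in KO in all 3 pairs (0.16, 0.09 and 0.21), whereas DUSP5 was lower in pairs 1 and 2 (-0.29 and -0.31) and not in pair 3 (0.05).

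With the replicate block 6 members were called lower and 1 higher, where 16.7% of all genes were lower and 17.2% higher. Beside the 4 genes called without the block these were SPRED3 (log2 change -0.33, adjusted p = 0.00184 by edgeR) and SPRED2 (-0.11, adjusted p = 0.0385) on the lower side and SPRY2 on the higher. With 1 library dropped and no block, the SPRED2 log2 change ran from -0.02 (without KO replicate 3) to -0.16 (without control replicate 3), and was -0.06 without control replicate 1, with no call in any of the 6 fits. Without both libraries numbered 3, 6 members were lower and 1 higher, with 13.7% and 11.7% of all genes. That comparison called DUSP5 (-0.30, adjusted p = 4.88e-05) and SPRED3 (-0.45, adjusted p = 9.46e-04) lower and SPRY2 higher (0.13, adjusted p = 0.0220). It did not call SPRED2 (-0.09, adjusted p = 0.227). DUSP7 and SPRED1 passed in neither. Both settings called more genes of the whole table in each direction than the group comparison did, and the counts of members are to be read beside those shares.

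**Figure D3:**
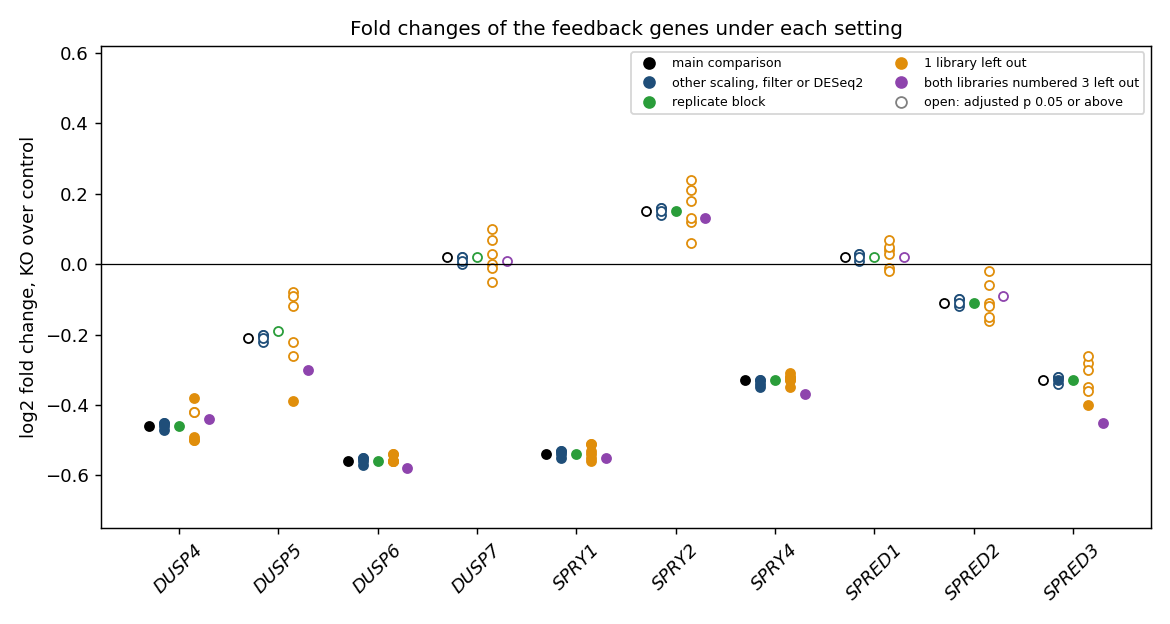
Log2 fold change of KO over control (vertical axis) of each feedback gene in the main comparison and the 12 other settings, coloured by the kind of setting; open points did not reach an edgeR or DESeq2 adjusted p below 0.05. DUSP6 and SPRY1 are filled in all settings, DUSP4 is open in 2 fits and SPRY4 in 1 fit with 1 library left out, and DUSP7 and SPRED1 are open throughout.

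Levels of different genes were compared per kb of exon, on a scale of CPM divided by the summed exon length in GENCODE release 29. In control cells DUSP4 led with 132 ± 12.5 CPM per kb, followed by DUSP6 (105 ± 0.134) and SPRY2 (97.0 ± 10.9), and the last 2 differed by less than the spread of SPRY2. DUSP5 (50 ± 11.9) and SPRY4 (41.4 ± 0.937) came next and also overlapped. SPRED2 (20.3 ± 1.32) and SPRY1 (16.6 ± 0.632) followed. DUSP7 (9.93 ± 0.857) and SPRED1 (9.03 ± 0.335) could not be separated by their spread, and SPRED3 was lowest (3.75 ± 0.229). In KO cells SPRY2 had the highest mean (108 ± 8.35), DUSP4 was at 96.4 ± 6.90 with overlapping values, and DUSP6 stood at 71.5 ± 1.84. SPRY1 was at 11.5 ± 0.185 and DUSP7 at 10.0 ± 0.742, without overlap. The order depended in part on the length used. Divided by the longest transcript, DUSP4 (126 ± 9.04) had a higher mean than SPRY2 (121 ± 9.36) in KO, SPRY1 (17.4 ± 0.281) and DUSP7 (17.0 ± 1.25) overlapped there, and in control DUSP7 (16.8 ± 1.45) stood above SPRED1 (9.59 ± 0.355) and SPRED2 (25.5 ± 1.66) overlapped SPRY1 (25.3 ± 0.961).

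Summed per kb, the 4 phosphatases measured 300, 295 and 298 in control and 221, 217 and 225 in KO. The fall was therefore seen in the phosphatase total, and DUSP4 and DUSP6 made up 44.5% ± 4.20 and 35.4% ± 0.257 of it in control. The 3 Sprouty genes summed to 160, 164 and 141 in control and 158, 155 and 143 in KO, which overlap. Within that sum SPRY2 went from 62.5% ± 2.33 to 70.8% ± 1.98, SPRY4 from 26.8% ± 1.61 to 21.7% ± 1.67 and SPRY1 from 10.8% ± 0.831 to 7.54% ± 0.311 (SD, n = 3). The Spred sums were 34.5, 33.4 and 31.2 in control and 31.2, 32.5 and 29 in KO. These sums and shares depend on the annotated lengths and were not tested. The genes were chosen with earlier results known.

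**Figure D4:**
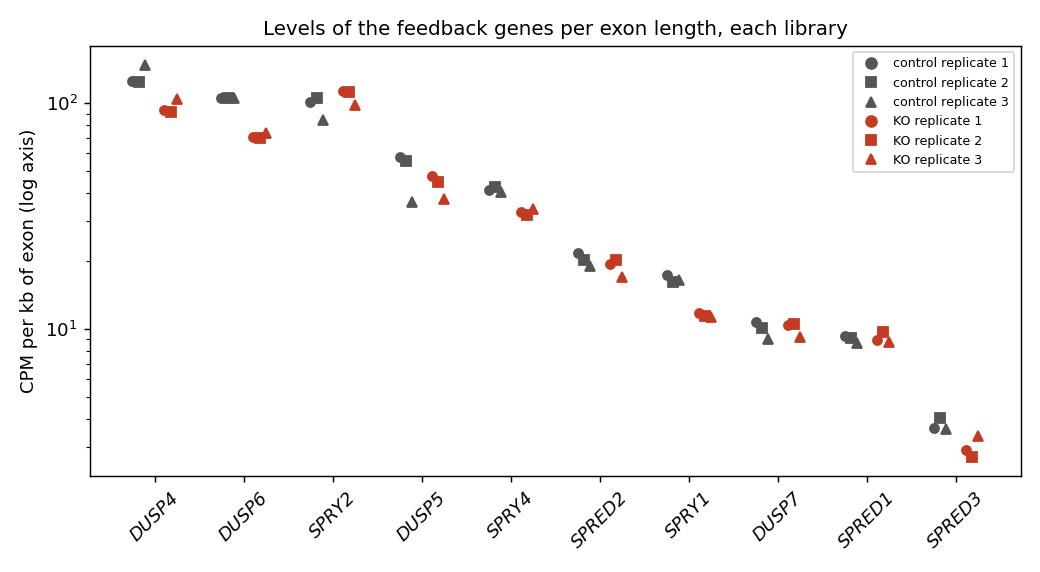
Level of each feedback gene in CPM per kb of exon (vertical axis, log scale) in every library, ordered by the control mean; grey is control, red is KO, and symbols give the replicate number. DUSP4, DUSP6 and SPRY2 form the upper end near 100 and SPRED3 the lower end near 4.

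Whether relatives changed unequally was asked with ratios inside each library in 6 pairs, on the log2(CPM + 0.5) scale, where the scaling of a library cancels apart from the pseudocount. The log2 ratio of SPRY2 to SPRY4 was 0.18, 0.20 and -0.05 in control and 0.68, 0.69 and 0.43 in KO, a shift of 0.49 with no overlap. The ratio of SPRY1 to SPRY4 moved from -2.03 ± 0.07 to -2.24 ± 0.05, a shift of -0.20, and was lower in every KO library than in every control library. The ratio of SPRED1 to SPRED2 moved by 0.13, also without overlap. Each of these 3 shifts had an exact two-sided permutation p = 0.10, the smallest that 3 against 3 libraries can give (0.20 after adjustment over the 6 ratios), and so could not pass at 0.05. DUSP4 to DUSP6 shifted by 0.10 (exact permutation p = 0.30, adjusted 0.36), DUSP5 to DUSP6 by 0.38 (exact permutation p = 0.30, adjusted 0.36) and SPRED3 to SPRED2 by -0.21 (exact permutation p = 0.40, adjusted 0.40), each with overlapping groups. Within same-numbered pairs, DUSP4 to DUSP6 shifted by 0.14, 0.15 and 0.03 and DUSP5 to DUSP6 by 0.28, 0.27 and 0.57. All 3 pairs had 1 sign in every ratio except SPRED3 to SPRED2 (-0.17, -0.54 and 0.07). An exact two-sided sign-flip permutation test over 3 pairs cannot go below p = 0.25, the value of the 5 ratios of 1 sign, and gave p = 0.50 for SPRED3 to SPRED2. The size of some shifts rested on single libraries: without control replicate 3, DUSP5 to DUSP6 shifted by 0.16 and DUSP4 to DUSP6 by 0.18. DUSP4 to DUSP6 shifted by 0.06 without control replicate 2. SPRED3 to SPRED2 shifted by -0.10 without KO replicate 2 and by -0.37 without KO replicate 3.

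**Figure D5:**
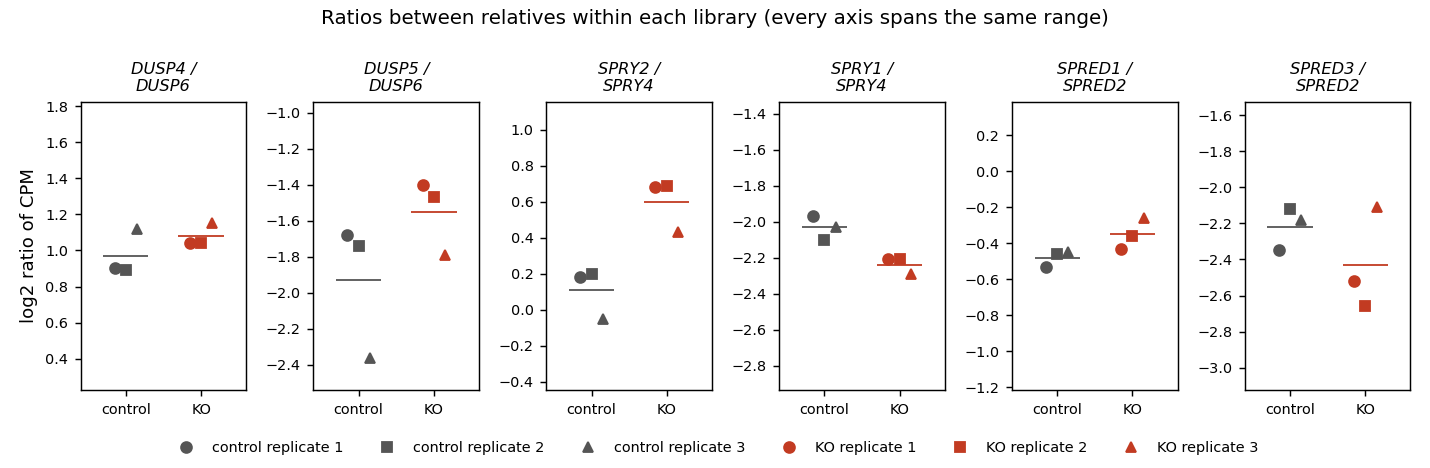
Log2 ratio of the CPM of 2 related genes within each library (vertical axes, all spanning the same range) in control (grey) and KO (red); symbols give the replicate number and lines the group mean. The SPRY2 to SPRY4 ratio lies between -0.05 and 0.20 in control and between 0.43 and 0.69 in KO, while the DUSP4 to DUSP6 ratios of the groups overlap.

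The other active MAP kinase phosphatases were 6 genes, of which 5 were tested. Of these 2 passed, both higher, and 0 were lower, where 3.28% of all genes were higher and 6.42% lower. DESeq2 also called 2 and 0, beside 4.03% and 6.57% of all genes. At an unadjusted edgeR p under 0.05 there were 3 and 0, beside 11.2% and 14.2% of all genes. DUSP1, a nuclear phosphatase induced early by growth factors and stress, measured 403, 421 and 379 CPM in control and 512, 522 and 510 CPM in KO. It rose by a log2 change of 0.36 (SE 0.06, adjusted p = 0.00911 by edgeR), with no overlap. DUSP10, which prefers JNK and p38, rose from 8.83 ± 0.650 to 13.3 ± 1.25 CPM (log2 change 0.59, SE 0.11, adjusted p = 0.0136 by edgeR). Without control replicate 1 neither was called (adjusted p = 0.0513 and 0.0683), at log2 changes of 0.36 and 0.53. The remaining tested genes were DUSP2, DUSP8 and DUSP16, and DUSP9 had too few counts.

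Other restraints of the pathway, such as RAS GTPase-activating proteins and receptor inhibitors, numbered 17, of which 16 were tested. With edgeR 0 passed in either direction, where 3.28% of all genes were higher and 6.42% lower. At an unadjusted edgeR p under 0.05 there were 3 higher and 2 lower, beside 11.2% and 14.2% of all genes. DESeq2 called 0 higher and 2 lower, beside 4.03% and 6.57% of all genes. The median log2 change of the 16 restraints was -0.08. The smallest adjusted p-values were those of RASA3, a RAS and RAP GTPase-activating protein (158 ± 14.0 and 131 ± 8.52 CPM, log2 change -0.28, SE 0.08, adjusted p = 0.0677 by edgeR), and ERRFI1, an inhibitor of the EGF receptor (770 ± 21.0 and 674 ± 10.6 CPM, -0.19, SE 0.06, adjusted p = 0.0777). DESeq2 called these 2 lower, with adjusted p = 0.0460 and 0.0358. With the replicate block 3 were higher and 3 lower, where 17.2% of all genes were higher and 16.7% lower. The core of the cascade itself, from the adaptor GRB2 to ERK, numbered 20 genes with 19 tested, and 0 passed. The median log2 change of the core was 0.05. At an unadjusted edgeR p under 0.05, 0 core genes were higher and 2 lower, beside 11.2% and 14.2% of all genes. DESeq2 called 0 and 0 of them, beside 4.03% and 6.57% of all genes. MAP2K1, which encodes the kinase MEK1, had a log2 change of -0.27 (SE 0.08, adjusted p = 0.0813 by edgeR) and MAPK3, which encodes a form of ERK, of -0.28 (SE 0.09, adjusted p = 0.0996). With the block 4 core genes were higher and 3 lower, beside 17.2% and 16.7% of all genes.

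Transcripts known to follow ERK activity, with the 10 members and the ETS factors left out, were 12 genes, all tested. Of these 1 rose, 1 fell and 10 did not pass, where 3.28% of all genes were higher and 6.42% lower. The median log2 change of the list was 0.01. DESeq2 also called 1 higher and 1 lower, beside 4.03% and 6.57% of all genes. At an unadjusted edgeR p under 0.05, 2 were higher and 3 lower, beside 11.2% and 14.2% of all genes. The stress-response gene IER3 rose from 431 ± 1.13 to 501 ± 5.39 CPM (log2 change 0.22, SE 0.06, adjusted p = 0.0406 by edgeR), which held in 1 fit of 6 when libraries were dropped 1 at a time (log2 change 0.21 to 0.23, adjusted p of up to 0.165), and not without the filter on low counts (0.0773). The potassium channel gene KCNN4 fell from 59.2 ± 2.15 to 40.7 ± 5.16 CPM (log2 change -0.54, SE 0.09, adjusted p = 0.00850 by edgeR), which was not called without KO replicate 2 (log2 change -0.52, adjusted p = 0.0508). Under the block, 3 transcripts of this list were higher and 4 lower, where 17.2% of all genes were higher and 16.7% lower. The few calls in the list thus went in both directions. Whether its transcripts follow ERK in these cells was not tested.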

How the data were processed

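RNA-seq of 3 control and 3 KO libraries was analysed. The authors deposited raw counts of reads per gene; reads were handled with STAR 2.7.9a, featureCounts, FastQC 0.11.9 and R 4.1.1 on hg38, per the submitters' processing notes, which give no order. The kit marks strand per the labels' protocols. The annotation, the strand setting of the counting and the treatment of multiply mapped reads were not found in the labels. Antisense, overlapping and pseudogene reads may therefore be mixed. Columns were matched to samples by library name, and groups and replicate numbers came from the titles. Genes were filtered with filterByExpr, scaled with TMM and tested with edgeR 4.0.16 (quasi-likelihood, robust, group as single term; Benjamini-Hochberg over all genes, threshold 0.05) in R 4.3.3; DESeq2 1.42.0 was an alternative. SE is the log2 fold change divided by the root of F. The edgeR fit with group as single term was checked on counts simulated without a replicate effect. That check does not cover the block. Members and gene lists were chosen with earlier results of these data known. Named genes are all members, the targeted genes, and per list up to 3 per direction with the smallest adjusted p, or 2 where none passed. Deviations of same-numbered libraries from their group means correlated at 0.55, 0.45 and 0.83 over 10032 genes, which are not independent. Control 1 with KO 2 (0.59) and control 2 with KO 1 (0.58) were higher than the first 2 of these. Only the libraries numbered 3 were thus matched by these values. The numbers were taken to pair the libraries, a pairing not given by the design and, for replicates 1 and 2, not by these correlations. The closest replicates, control 1 and 2, differed by a chi-square of 4.19 per degree of freedom, more than sampling noise.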

Additional observations from a re-analysis of the deposited data

How the results depend on the processing

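Over all genes, 483 were higher and 944 lower in KO; the replicate block gave 2522 and 2461, leaving out both libraries numbered 3 gave 1731 and 2023, and leaving out 1 library gave 136 to 777 higher and 436 to 964 lower. The 4 lower members became 3 to 5 with 1 library left out, 5 without a filter and 6 with the block or without both libraries numbered 3, and the 1 higher member appeared with the block and without both libraries numbered 3. For the other phosphatases, 0 to 2 were higher with 1 library left out. For the other restraints, 1 was lower with upper-quartile factors or no filter, 2 with DESeq2, 0 to 1 with 1 library left out; the block gave 3 and 3, and omitting both libraries numbered 3 gave 1 higher and 2 lower. For the core, no filter gave 2 lower, the block 4 higher and 3 lower, omitting both libraries numbered 3 gave 1 and 3, and omitting 1 library 0 to 1 lower. For the transcripts known to follow ERK activity, no filter gave 0 higher and 3 lower, and the block 3 and 4. Omitting both libraries numbered 3 gave 4 and 5, and omitting 1 library 0 to 1 higher and 0 to 2 lower. Fewer samples entered the fits with libraries left out; otherwise the cause was not tested. Values near 0 changed sign: DUSP7 to -0.05 without control replicate 3 and -0.01 without KO replicate 2, SPRED1 to -0.01 and -0.02 in the same fits, and ETV5 to 0.00 with upper-quartile factors and -0.02 without control replicate 2. With 1 library left out they ranged from -0.05 to 0.10, -0.02 to 0.07 and -0.02 to 0.04, and none was called. With the longest transcript as length, DUSP4 made up 49.2% of the phosphatases, SPRY2 58.7% of the Sprouty and SPRED2 64.2% of the Spred genes in control. The 6 ratios kept their sign at other pseudocounts and with 1 library left out, but not their size: DUSP5 to DUSP6 ran from 0.16 to 0.50, DUSP4 to DUSP6 from 0.06 to 0.18 and SPRED3 to SPRED2 from -0.37 to -0.10 with 1 library left out. The paired test of the ratios, with the replicate number as a block, was chosen after seeing the data and left each mean shift as it was. The median log2 change of all genes stayed between -0.011 and 0.012 in the main comparison and the 12 alternatives. Genes near the filter are limited by depth.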

Other observations

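The table also holds 14 further genes named DUSP, mostly atypical dual-specificity phosphatases, a group looked up after the values above had been seen. Of these 9 had enough counts to be tested, and their median log2 fold change (log2 change) was 0.09. DUSP3, a small phosphatase of ERK and JNK and other substrates, alone passed edgeR's test, where 3.28% of all genes were higher and 6.42% lower. It measured 74.9, 73.3 and 67.6 CPM in control and 59.9, 58.6 and 56.7 CPM in KO, with no overlap, and fell by 0.30 on the log2 scale (SE 0.06, adjusted p = 0.0215 by edgeR). DUSP18 also did not overlap, at 4.44, 3.99 and 4.17 CPM in control and 3.59, 3.27 and 2.09 CPM in KO, but did not pass (log2 change -0.49, SE 0.21, adjusted p = 0.184 by edgeR).

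Beside DUSP5, 2 related transcripts of low abundance were tested. The divergent transcript DUSP5-DT measured 2.55, 2.64 and 2.13 CPM in control and 1.77, 2.08 and 1.87 CPM in KO, without overlap (log2 change -0.35, SE 0.20, adjusted p = 0.317 by edgeR). The pseudogene DUSP5P1 measured 1.04, 1.19 and 1.23 CPM in control and 0.643, 0.623 and 0.605 CPM in KO, also without overlap (log2 change -0.88, SE 0.28, adjusted p = 0.0839 by edgeR). Neither passed the test. Control replicate 3, the library with the lowest DUSP5, had the highest DUSP5P1 value, though little above control replicate 2 (1.23 against 1.19 CPM). In KO, by contrast, replicate 3 was the lowest of its group for both DUSP5 (98.5 CPM) and DUSP5P1 (0.605 CPM).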
